A study of Mus musculus with 20 samples.

Results

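The genes described here are 41 genes of the urea cycle and of amino acid breakdown, taken by symbol from a table of 50559 mouse genes counted in 20 livers. The rule uses symbols and no measured value, although the list was made with earlier results of these data known. The genes fall into 4 classes: 6 of the urea cycle, 10 of aromatic amino acid and tryptophan breakdown, 9 of branched-chain amino acid and propionate breakdown, and 16 for other amino acids. All 41 had a row in the table, and all 41 passed the filter on low counts in every comparison, so none was left out.

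RNA was sequenced from 4 groups of 5 livers. Every mouse carried floxed alleles of *Cideb* (cidebfl/fl), a gene whose protein sits on lipid droplets and helps them to grow. WT mice received AAV-TBG-GFP and KO mice received AAV-TBG-Cre, a virus that expresses the recombinase from a promoter active in hepatocytes, so that other liver cells kept the floxed alleles. The same promoter drove the control vector. One diet was a western diet (WD). The other, CDA-HFD, is a high-fat diet that lacks choline and supplies defined amino acids in place of protein. The study's methods describe it as deficient in methionine as well. The labels give 3 months for both diets, whereas the study's text gives a longer time on WD than on CDA-HFD. Diet, time on the diet, age at collection and any batch of collection therefore cannot be told apart in comparisons between diets.

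Amino acids that are broken down in the liver release ammonia, which periportal hepatocytes turn into urea through the urea cycle, a route that starts in mitochondria and ends in the cytosol. The carbon skeletons are oxidized by separate routes for each family of amino acids and feed the tricarboxylic acid cycle, glucose synthesis or ketone bodies. Many of these enzymes are made mainly by hepatocytes, and their genes respond to feeding, glucagon and glucocorticoids.

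Promoter sequences of 31 of the 41 genes (33 promoters) were at hand from RefSeq on build GRCm38.p6, each with 250 bases before and 50 bases after the start site. They were searched on both strands for short motifs. The 4 motifs reported were the letters of an HNF4 site (CAAAGTCCA), a C/EBP site (TTGCNNAA), a CRE core (TGACG) and a TATA box (TATAAA). The sequences of 4 genes on which later results turn are shown 5′ to 3′ on the gene's strand, with motif matches in capitals: *Prodh*, the member that passed the test of a difference in KO effect between the diets, *Tdo2*, one of 5 members that kept their difference when any single liver was left out, and *Nags* and *Aass*, members with a higher level in KO livers that hold searched letters. *Prodh* lies at chr16:18089141-18089440 on the minus strand, *Tdo2* at chr3:81975679-81975978 on the minus strand, *Nags* at chr11:102145263-102145562 on the plus strand and *Aass* at chr6:23132937-23133236 on the minus strand.
Prodh: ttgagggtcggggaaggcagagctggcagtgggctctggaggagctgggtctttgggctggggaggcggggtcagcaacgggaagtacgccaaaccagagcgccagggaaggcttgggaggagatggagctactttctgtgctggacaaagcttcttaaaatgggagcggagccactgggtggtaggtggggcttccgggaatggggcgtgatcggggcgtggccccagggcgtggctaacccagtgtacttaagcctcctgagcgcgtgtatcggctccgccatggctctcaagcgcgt
Tdo2: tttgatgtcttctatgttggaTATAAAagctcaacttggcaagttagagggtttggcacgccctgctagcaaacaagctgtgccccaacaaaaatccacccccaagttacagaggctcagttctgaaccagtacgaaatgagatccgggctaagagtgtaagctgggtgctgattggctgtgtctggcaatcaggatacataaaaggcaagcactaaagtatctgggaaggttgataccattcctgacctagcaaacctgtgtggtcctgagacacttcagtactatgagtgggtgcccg
Nags: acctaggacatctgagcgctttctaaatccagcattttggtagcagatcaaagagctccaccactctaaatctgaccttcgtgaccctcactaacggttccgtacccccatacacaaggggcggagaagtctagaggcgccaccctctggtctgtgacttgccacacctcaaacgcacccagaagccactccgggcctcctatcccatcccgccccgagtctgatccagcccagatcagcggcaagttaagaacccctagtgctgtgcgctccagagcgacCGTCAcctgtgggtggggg
Aass: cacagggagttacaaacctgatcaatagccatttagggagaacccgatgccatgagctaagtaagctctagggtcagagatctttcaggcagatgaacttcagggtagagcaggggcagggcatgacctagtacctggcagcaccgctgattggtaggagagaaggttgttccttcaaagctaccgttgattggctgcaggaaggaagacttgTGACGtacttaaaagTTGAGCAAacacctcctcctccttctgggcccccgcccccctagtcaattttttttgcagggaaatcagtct
The capitals mark the TATA letters in *Tdo2*, at -229 from the start site, and a CRE core in *Nags* read on the opposite strand. In *Aass* they mark a CRE core and, read on the opposite strand, a C/EBP site. *Prodh* held none of the 4. The HNF4 letters were in 0 of the 31 genes and in 0.475% of all promoters. C/EBP letters were in 3 genes (9.68%, against 10.8% of all promoters), CRE letters in 5 (16.1% against 20.8%) and TATA letters in 4 (12.9% against 13.6%). These matches describe letters only. Each share was close to that of all promoters.

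Between 11697049 and 16827147 reads per liver fell on genes. *Cideb*, the targeted gene, was at 4.77 to 7.56 CPM (counts scaled for the depth of each library) in WT livers on WD and 2.22 to 3.82 in WT livers on CDA-HFD, and at 0 to 0.39 and 0 to 0.40 in the KO livers. The exons of *Cideb* overlap another gene over 76.3% of their length. In WT livers the 10 hepatocyte markers, *Alb* and *Ttr* among them, summed to 72246 to 109469 CPM on WD and 42321 to 82894 on CDA-HFD. No marker of any of the 6 cell types checked was at 0 in every liver. KO liver 5 on CDA-HFD stood apart from the other 4 livers of its group, as the lowest of them for 34.1% of all genes and the highest for 35.4%, so the counts of members, classes and lists in KO against WT livers on CDA-HFD are given with and without it.

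Levels are given as CPM scaled by TMM (trimmed mean of M values) over all 20 libraries. Fold changes are log2 values with standard errors (SE) from edgeR's quasi-likelihood test. A gene is called higher or lower at a Benjamini-Hochberg adjusted p under 0.05 over all genes tested in that comparison. The labels do not say that each library came from its own animal, so p-values measure the spread between these livers. Length-corrected levels (CPM per kilobase of exon) spanned a wide range. *Cps1*, which makes carbamoyl phosphate for the urea cycle, led in WT livers on WD at a mean of 722, followed by *Hpd* at 541 and *Tat* at 493. *Acmsd*, which diverts tryptophan carbon away from NAD synthesis, was last at 3.09. *Cps1* also led in both KO groups. In WT livers on CDA-HFD, *Tat* at 414 and *Cps1* at 409 were nearly level.

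**Figure D1:**
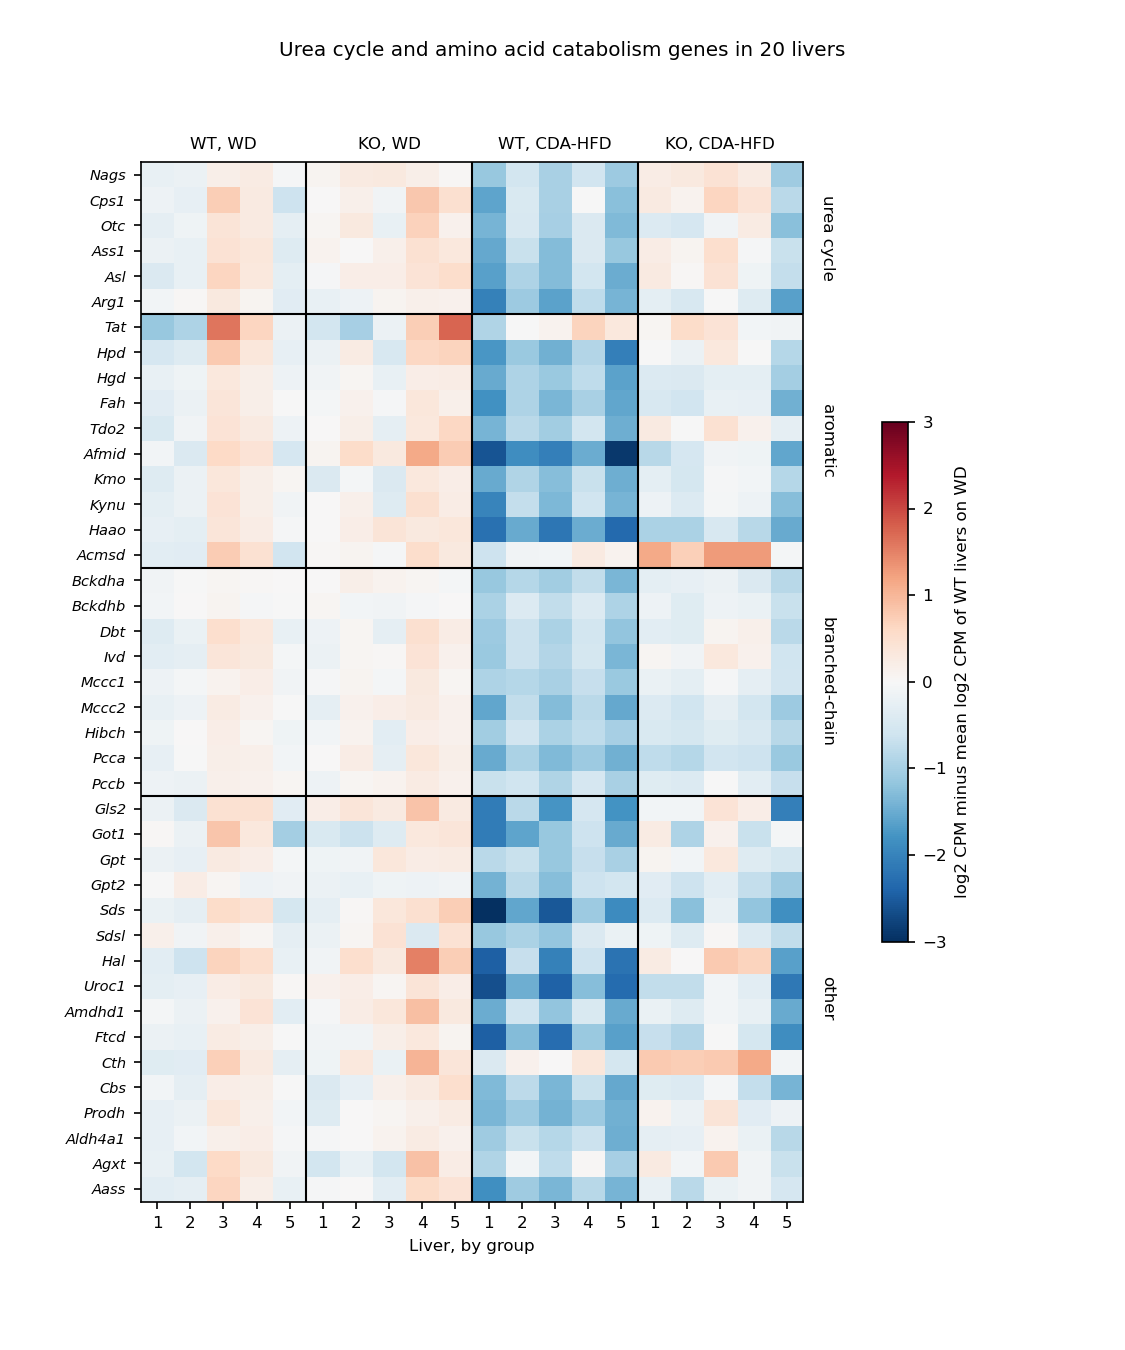
Level of each of the 41 genes (rows, in 4 classes) in each of the 20 livers (columns, by group), as log2 CPM minus the mean log2 CPM of the 5 WT livers on WD (blue for lower, red for higher). The WT livers on CDA-HFD are blue for nearly every gene, and of the KO livers on CDA-HFD liver 5 is the most blue.

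Most of the genes were higher in KO than in WT livers on CDA-HFD, and none was called on WD. On CDA-HFD 23 of the 41 rose in KO livers and none fell, against 8.19% of all 17204 genes tested that were higher and 7.29% that were lower. All 41 had a positive fold change. Their median log2 fold change was 0.77, against 0.005 over all genes. In 6 of the 41 the values of WT and KO livers did not overlap at all, against 9.57% of all genes. By class, 3 of 6 urea cycle genes, 7 of 10 aromatic genes, 5 of 9 branched-chain genes and 8 of 16 others rose. The class medians were 0.94, 0.89, 0.59 and 0.85 on the log2 scale. DESeq2 called 30 of the 41 higher and none lower, against 11.1% of 19533 genes higher and 9.49% lower. Without KO liver 5, edgeR called 38 of the 41 higher and none lower, against 19.6% of 17411 genes higher and 21.8% lower. By class these were 6 of 6 urea cycle genes, 9 of 10 aromatic genes, 9 of 9 branched-chain genes and 14 of 16 others, and the median over the 41 was 0.92. Without that liver the values of 33 of the 41 did not overlap between WT and KO livers, against 34.1% of all genes. In bulk liver, fewer hepatocytes and less of these mRNAs per hepatocyte cannot be told apart.

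On WD edgeR called 0 of the 41 higher and 0 lower, where 0.0126% of 15848 genes were higher and 0.0631% lower. DESeq2 also called 0 in each direction. One member (*Afmid*) had an unadjusted p under 0.05 with edgeR, against 1702 of the 15848 genes, and 3 members did with DESeq2. The fold change was positive for 36 of the 41, against 8360 of the 15848 genes. The median was 0.10 on the log2 scale, against 0.012 over all genes. No member had values free of overlap between WT and KO livers on WD, against 2.22% of all genes. These counts do not show that the groups were alike: the SE of single members on WD ran up to 0.60 (*Tat*).

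**Figure D2:**
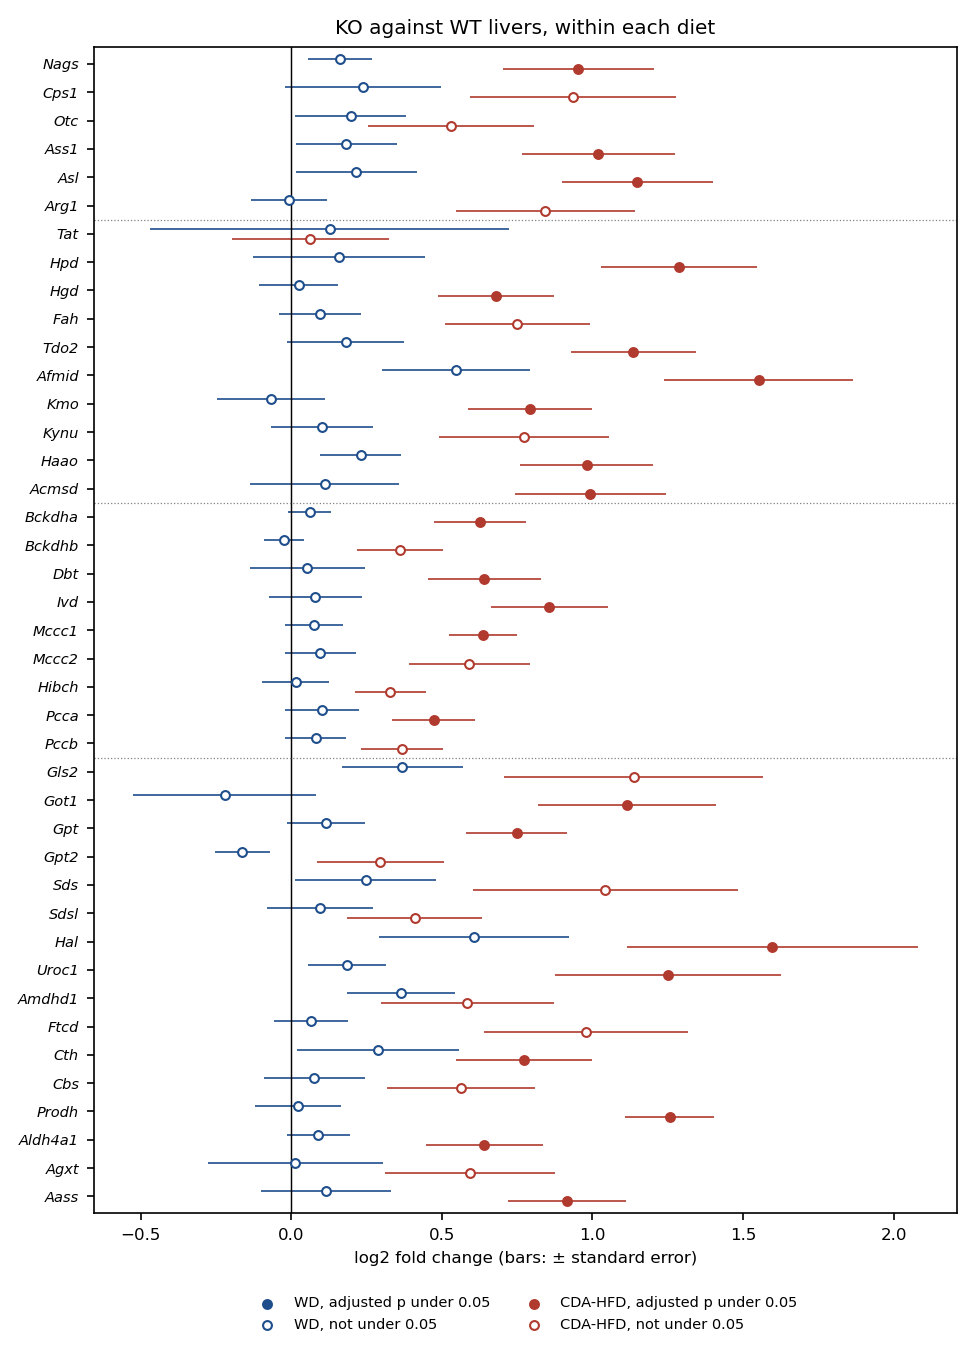
Log2 fold change of KO against WT livers for each of the 41 genes (points, with SE as bars) on WD (blue) and on CDA-HFD (red), n = 5 livers per group. Filled points have an adjusted p under 0.05: 23 genes on CDA-HFD and none on WD.

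Among the urea cycle genes, *Nags* makes N-acetylglutamate, the activator of carbamoyl phosphate synthesis. Its level on WD was 44.4, 45.9, 59.2, 61.8 and 51.1 CPM in WT livers and 54.8, 62.6, 63.7, 58.8 and 52.9 in KO livers. On CDA-HFD it was 23.6, 35.7, 26.4, 35.0 and 24.4 in WT livers and 60.7, 64.2, 70.7, 61.4 and 24.9 in KO livers. The first 4 KO livers were above every WT liver, and KO liver 5 lay among the WT livers. The KO effect on CDA-HFD was 0.95 ± 0.25 (SE, n = 5), adjusted p = 0.0304. On WD it was 0.16 ± 0.11, adjusted p = 0.608, and the groups overlapped.

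*Ass1* joins citrulline to aspartate, the step that brings in the second nitrogen. It was at 599.8, 577, 918, 862 and 519 CPM in WT and 733, 679, 753, 928 and 843 CPM in KO livers on WD. WT livers on CDA-HFD had 235, 425, 275, 499.9 and 307 CPM and KO livers 785, 722, 958, 658 and 423 CPM. KO liver 5 was below 2 of the WT livers, and the other 4 KO livers were above all of them. *Ass1* rose by 1.02 ± 0.25 in KO livers on CDA-HFD (adjusted p = 0.0263), and the WD value was 0.18 ± 0.17 (adjusted p = 0.730).

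*Asl* splits argininosuccinate into arginine and fumarate. Its WD levels were 263, 302, 551, 444 and 291 CPM in WT livers and 344, 409, 406, 474 and 514 in KO livers. Its CDA-HFD levels were 114, 188, 144, 242 and 127 in WT livers and 426, 366, 481, 326 and 216 in KO livers. Again only KO liver 5 lay inside the WT range. The KO effect was 1.15 ± 0.25 on CDA-HFD (adjusted p = 0.0181) and 0.22 ± 0.20 on WD (adjusted p = 0.733).

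*Arg1* releases urea from arginine in the last step. Its WD levels were 715, 774, 926, 806 and 600.3 CPM in WT livers and, in KO livers, 650.4, 679, 804, 838 and 825. CDA-HFD levels were 185, 355, 250.3, 444 and 286 in WT livers and 622, 544, 749, 578 and 245 in KO livers. KO liver 5 was far below the other KO livers and below 4 of the 5 WT livers, and *Arg1* did not pass the test (0.84 ± 0.30, adjusted p = 0.0735). *Cps1* at 0.94 ± 0.34 (adjusted p = 0.0816) and *Otc*, which forms citrulline, at 0.53 ± 0.28 (adjusted p = 0.191) also missed the threshold.

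In tyrosine breakdown, *Hpd* makes homogentisate from hydroxyphenylpyruvate. Its levels were 762, 832, 1861, 1376 and 921 CPM in WT and 952, 1281, 776, 1658 and 1733 CPM in KO livers on WD. WT livers on CDA-HFD had 325, 501, 397, 585 and 263 and KO livers 1072, 962, 1360.1, 1081 and 602. On CDA-HFD every KO liver was above every WT liver. On WD the groups ran over the same range. The KO effects were 1.29 ± 0.26 (adjusted p = 0.0147) on CDA-HFD and 0.16 ± 0.28 (adjusted p = 0.882) on WD. *Hgd*, which opens the homogentisate ring, rose by 0.68 ± 0.19 (adjusted p = 0.0392). *Fah*, the last enzyme of the route, was at 0.75 ± 0.24 (adjusted p = 0.0558), and *Tat*, the first, at 0.06 ± 0.26 (adjusted p = 0.881). *Tat* was the member with the smallest KO effect on CDA-HFD and the widest spread among livers on WD, with a coefficient of variation of 83.4% in WT and 82.2% in KO livers.

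*Tdo2* opens the ring of tryptophan and commits it to the kynurenine route. WT livers on WD had 882, 1116, 1606, 1461 and 1091 CPM and KO livers 1219.9, 1368, 1002, 1507 and 1864. WT livers on CDA-HFD had 459, 682, 585, 822 and 439 and KO livers 1451, 1187, 1643, 1316 and 996. The 5 KO livers on CDA-HFD stood apart from the 5 WT livers and ran over the same values as livers on WD. *Tdo2* rose by 1.14 ± 0.21 in KO livers on CDA-HFD (adjusted p = 0.0122), and its WD value was 0.18 ± 0.19 (adjusted p = 0.774).

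*Afmid* hydrolyses formylkynurenine to kynurenine. Its levels on WD were 85.3, 66.5, 137, 119 and 63.4 CPM in WT livers and 95.5, 131, 110.2, 196 and 151 in KO livers. Its levels on CDA-HFD were 14.8, 24.5, 21.7, 32.0 and 12.1 in WT livers and 50.1, 63.3, 83.5, 81.8 and 30.4 in KO livers. KO liver 5 was just below WT liver 4, and the other KO livers were higher than all WT livers. The KO effect was 1.55 ± 0.31 on CDA-HFD (adjusted p = 0.0152) and 0.55 ± 0.25 on WD (unadjusted p = 0.0458 and adjusted p = 0.456, edgeR). Further along the route, *Kmo* rose by 0.79 ± 0.20 (adjusted p = 0.0292), *Haao* by 0.98 ± 0.22 (adjusted p = 0.0198) and *Acmsd* by 0.99 ± 0.25 (adjusted p = 0.0276). *Kynu*, which cleaves kynurenines, was at 0.77 ± 0.28 (adjusted p = 0.0817).

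**Figure D3:**
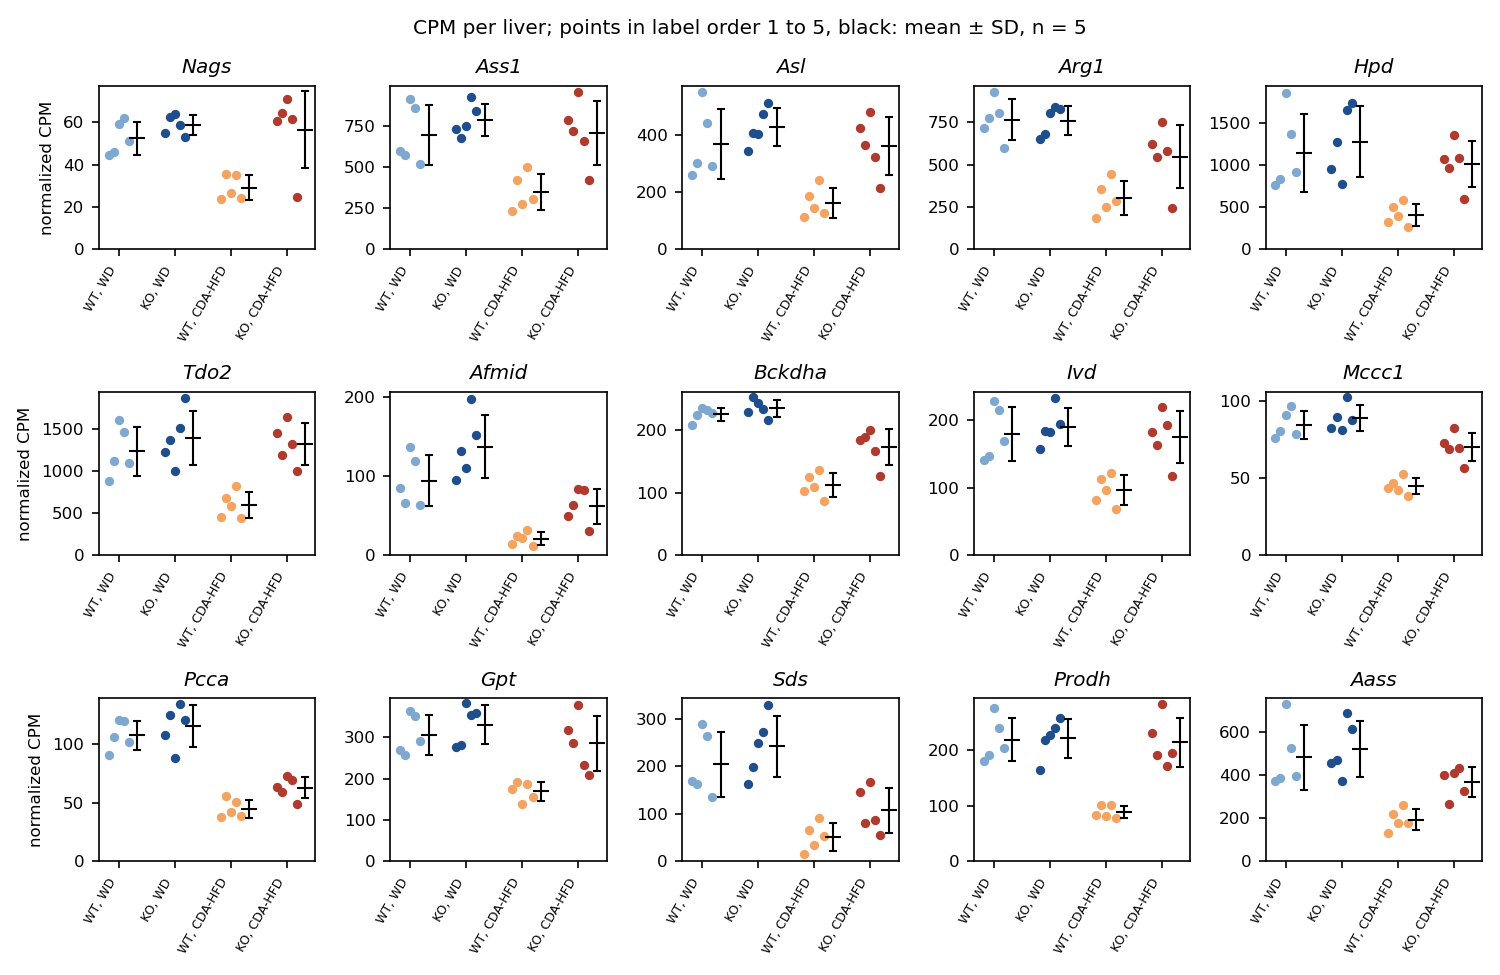
CPM of 15 genes in each of the 20 livers (points, by group, with axes from 0) with mean and SD beside them, n = 5. For *Prodh* the 5 KO livers on CDA-HFD, at 170.5 to 282 CPM, lie above all 5 WT livers on that diet, at 78.6 to 101 CPM, and, but for liver 3, within the range of the livers on WD.

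The branched-chain class had the lowest median difference of the 4. *Bckdha*, *Bckdhb* and *Dbt* encode subunits of the branched-chain ketoacid dehydrogenase, which commits leucine, isoleucine and valine to oxidation. *Bckdha* was at 208, 224, 235, 231 and 227 CPM in WT and 228, 252, 242, 234 and 216 CPM in KO livers on WD. It was at 102, 125, 109, 136 and 86.4 in WT and 184, 188, 199, 166 and 126 in KO livers on CDA-HFD. Only KO liver 5 overlapped the WT livers. The KO effect was 0.63 ± 0.15 on CDA-HFD (adjusted p = 0.0241) and 0.06 ± 0.07 on WD (adjusted p = 0.804). *Dbt* rose by 0.64 ± 0.19 (adjusted p = 0.0429), and *Bckdhb* was at 0.36 ± 0.14 (adjusted p = 0.0992).

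*Ivd* and *Mccc1* act one after the other in leucine breakdown, as isovaleryl-CoA dehydrogenase and as a subunit of methylcrotonyl-CoA carboxylase. *Ivd* was at 140.3, 146, 228, 214 and 168 CPM in WT and 156, 183, 181, 232 and 193 CPM in KO livers on WD, and at 81.8, 113, 95.9, 122 and 67.7 in WT and 182, 163, 219, 192 and 117 in KO livers on CDA-HFD. *Mccc1* was at 76.1, 80.7, 91.0, 96.9 and 78.6 CPM in WT and 82.7, 89.8, 81.3, 103 and 88.1 CPM in KO livers on WD, and at 44.1, 46.8, 42.8, 52.6 and 38.7 in WT and 73.1, 68.8, 82.3, 69.5 and 56.9 in KO livers on CDA-HFD. For *Mccc1* no KO liver on CDA-HFD reached down to the WT livers, whereas *Ivd* in KO liver 5 was below WT liver 4. On CDA-HFD *Ivd* rose by 0.86 ± 0.19 (adjusted p = 0.0199). *Mccc1* rose by 0.64 ± 0.11 (adjusted p = 0.0121). The WD values were 0.08 ± 0.15 (adjusted p = 0.889) and 0.08 ± 0.10 (adjusted p = 0.822). *Mccc2*, the partner subunit of *Mccc1*, was at 0.59 ± 0.20 on CDA-HFD (adjusted p = 0.0661).

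*Pcca* and *Pccb* encode the subunits of propionyl-CoA carboxylase, which receives the propionyl-CoA left by valine and isoleucine. *Pcca* levels on WD were 90.7, 106, 120.1, 119 and 102 CPM in WT livers and 107, 125, 88.3, 134 and 120.4 in KO livers. Levels on CDA-HFD were 37.7, 55.5, 42.4, 50.3 and 39.0 in WT livers and 63.0, 59.3, 72.3, 69.6 and 49.2 in KO livers. KO liver 5 was below 2 WT livers, and all KO livers on CDA-HFD were below all KO livers on WD. The KO effect on CDA-HFD was 0.47 ± 0.14 (adjusted p = 0.0416), and on WD 0.10 ± 0.12 (adjusted p = 0.804). The call for *Pcca* on CDA-HFD was lost without the filter on low counts and with scaling by library size only. *Pccb* at 0.37 ± 0.14 (adjusted p = 0.0823) and *Hibch*, of valine breakdown, at 0.33 ± 0.12 (adjusted p = 0.0767) did not pass.

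In the last class, *Prodh* starts the breakdown of proline in mitochondria. Its WD levels were 181, 191, 274, 239.5 and 203 CPM in WT livers and 164, 217, 225, 239 and 256 in KO livers. Its CDA-HFD levels were 83.7, 100.5, 81.1, 101 and 78.6 in WT livers and 229.9, 189.9, 282, 170.5 and 194 in KO livers. WT livers on CDA-HFD lay below every liver of the other groups, and KO liver 5 was in the middle of its group. *Prodh* rose by 1.26 ± 0.15 in KO livers on CDA-HFD (adjusted p = 0.00305), a fold of 2.39, and was at 0.02 ± 0.14 on WD (adjusted p = 0.974). It had the smallest adjusted p among the 41 genes. *Aldh4a1*, which completes the conversion of proline to glutamate, rose by 0.64 ± 0.19 (adjusted p = 0.0474), a call lost without the filter and with scaling by library size only.

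*Gpt* moves the amino group of alanine to glutamate. Its levels were 270.0, 257, 363, 351 and 290.4 CPM in WT and 278, 282, 383, 355 and 358 CPM in KO livers on WD. WT livers on CDA-HFD had 174, 191, 138, 188 and 155 CPM and KO livers 319, 286, 378, 233 and 210.2 CPM. All KO livers were above all WT livers on CDA-HFD. *Gpt* rose by 0.75 ± 0.17 (adjusted p = 0.0193), with 0.11 ± 0.13 on WD (adjusted p = 0.792). The aspartate transaminase *Got1* rose by 1.11 ± 0.30 (adjusted p = 0.0316), a call lost with scaling by library size only, while the mitochondrial alanine transaminase *Gpt2* was at 0.30 ± 0.21 (adjusted p = 0.335).

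*Aass* starts lysine breakdown. It was at 375, 389.9, 730.3, 526 and 398 CPM in WT and 459, 471, 373, 692 and 617 CPM in KO livers on WD. CDA-HFD levels were 130.4, 222, 179.6, 262 and 177 in WT and 402, 266, 409.9, 436 and 329 in KO livers. The lowest KO liver, liver 2, was just above the highest WT liver. The KO effects were 0.92 ± 0.20 on CDA-HFD (adjusted p = 0.0173) and 0.11 ± 0.22 on WD (adjusted p = 0.887).

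*Sds* deaminates serine to pyruvate. On WD its levels were 170.0, 163, 288, 265 and 135 CPM in WT livers and 162, 199, 249, 271 and 328 in KO livers. CDA-HFD levels were 14.9, 66.0, 33.7, 91.6 and 53.1 in WT livers and 146, 81.7, 167, 86.2 and 54.9 in KO livers. KO livers 2, 4 and 5 lay inside the WT range, and the KO effect on CDA-HFD did not pass the test (1.04 ± 0.44, adjusted p = 0.118). Its homologue *Sdsl* was at 0.41 ± 0.23 (adjusted p = 0.214).

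Of the histidine genes, *Hal*, which makes urocanate, rose by 1.60 ± 0.48 (adjusted p = 0.0473) and *Uroc1*, which acts on urocanate, by 1.25 ± 0.38 (adjusted p = 0.0461). Both calls were lost with scaling by library size only. The later enzymes *Amdhd1*, at 0.58 ± 0.29 (adjusted p = 0.169), and *Ftcd*, at 0.98 ± 0.34 (adjusted p = 0.0704), did not pass. *Cth*, which releases cysteine from cystathionine, rose by 0.77 ± 0.23 (adjusted p = 0.0427), and *Cbs*, which makes cystathionine, was at 0.56 ± 0.25 (adjusted p = 0.129). The liver-type glutaminase *Gls2* at 1.14 ± 0.43 (adjusted p = 0.0886) and the glyoxylate transaminase *Agxt* at 0.59 ± 0.28 (adjusted p = 0.158) were the remaining members.

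Whether the KO effect differed between the diets was tested directly as an interaction over all 20 livers. *Prodh* alone passed, at 1.24 ± 0.21 on the log2 scale (adjusted p = 0.0107). Of 17804 genes, 0.331% were called with a higher KO effect on CDA-HFD than on WD and 0.225% with a lower one. With a replicate block the value of *Prodh* was 1.23 and its adjusted p 0.0557, which does not pass. The other 40 did not pass, and 25 of the 41 had an unadjusted p under 0.05 in edgeR, against 15.4% of all genes. The interaction value was positive for 40 of the 41, against 9305 of the 17804 genes. The median was 0.68, against 0.019 over all genes. The exception among the 41 was *Tat* at -0.06 ± 0.70. DESeq2 called 4 members, adding *Tdo2*, *Bckdha* and *Mccc1*. Of 13012 genes it called 2.02% with a higher KO effect on CDA-HFD and 1.09% with a lower one. Without KO liver 5 on CDA-HFD, edgeR called 21 members with a higher KO effect on CDA-HFD and none with a lower one. Over 17995 genes these shares were 6.17% and 5.71%.

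Variation between livers was shared across the classes. In KO liver 5 on CDA-HFD the class means were -1.02 for the urea cycle, -0.89 for aromatic, -0.80 for branched-chain and -1.06 for other genes, in log2 units relative to WT livers on WD. The other 4 KO livers had means over all 41 genes of -0.31 to 0.12, and the WT livers on CDA-HFD of -1.53 to -0.62. KO liver 5 was the lowest of its group for 38 of the 41 genes, against 34.1% of all genes. It lay inside the WT range for 34 of the 41, and the share of all genes inside that range was not counted. Livers also differed within the other groups. WT liver 3 on WD was the highest of its group for 34 of the 41, against 24.3% of all genes. WT liver 4 on CDA-HFD was the highest for 32, against 20.4% of all genes. The median coefficient of variation was 19.8% in WT and 15.9% in KO livers on WD, and 27.2% and 27.0% on CDA-HFD.

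**Figure D4:**
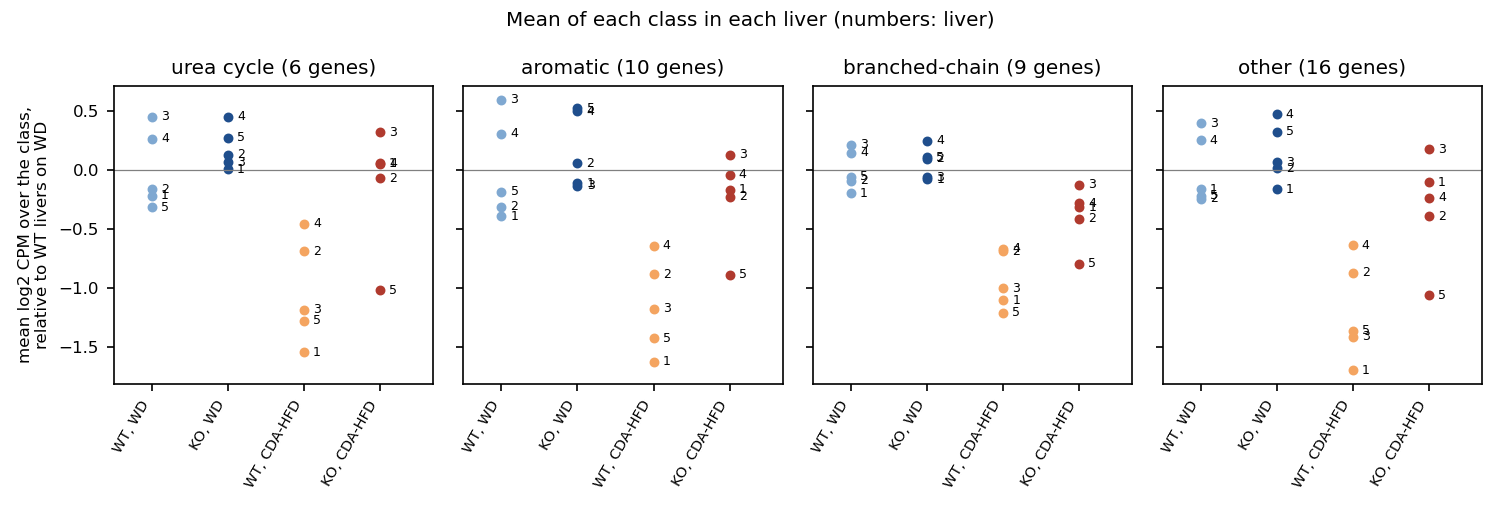
Mean log2 CPM over the genes of each class relative to the WT livers on WD (vertical axis, log2 units) in each liver (numbered points) of the 4 groups. KO liver 5 on CDA-HFD lies at -0.80 to -1.06, among the WT livers of that diet, while the other 4 KO livers lie between -0.42 and 0.32.

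The count of 23 depended on single livers. Without KO liver 5 it was 38. It was 10 without WT liver 1, 20 without WT liver 2, 5 without WT liver 3, 25 without WT liver 4, 7 without WT liver 5, 5 without KO liver 1, 11 without KO liver 2, 6 without KO liver 3 and 13 without KO liver 4. *Hpd*, *Tdo2*, *Afmid*, *Mccc1* and *Prodh* were called in all 10 of these fits. The count over all genes moved as well. It was 1409 higher of 17204 with every liver, and 3406 without KO liver 5. Without WT livers 1 to 5 in turn it was 690, 1073, 375, 1364 and 438. Without KO livers 1 to 4 in turn it was 362, 513, 358 and 826. Between 17282 and 17623 genes were tested in the fits without 1 liver.

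Marker sums of cell types also differed between livers on CDA-HFD. The 10 hepatocyte markers summed to 42321 to 82894 CPM in WT and 41996 to 114776 in KO livers, with KO liver 5 at the lowest value, and 2 of the 10 rose in KO livers. The 14 macrophage markers summed to 2065 to 4231 CPM in WT and 788 to 2514 in KO livers, and 5 fell. The 10 stellate cell markers summed to 2017 to 3360 CPM in WT and 1027 to 3520 in KO livers, and 3 fell. The 8 cholangiocyte markers summed to 370 to 807 CPM in WT and 69.7 to 656 in KO livers, and 1 of 7 tested fell. KO liver 5 held the highest KO value for each of these 3. Endothelial sums were 633 to 736 CPM in WT and 598 to 1008 in KO livers, and lymphocyte sums 14.8 to 25.7 and 11.9 to 32.7, with no marker called in either list of 10. Without KO liver 5, 5 hepatocyte and 8 endothelial markers and 2 macrophage markers rose, and 10 macrophage, 8 stellate cell, 7 of 8 cholangiocyte and 1 lymphocyte markers fell. Their part in the difference was not tested.

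Of 17 members on a list of mitochondrial enzymes, 9 rose in KO livers on CDA-HFD, with a median log2 fold change of 0.64. Of the 24 not on that list, *Kmo* among them, 14 rose, with a median of 0.91. By place in the lobule, 3 of 7 members known as periportal rose, with a median of 1.04, and 20 of the other 34, with a median of 0.71. These counts were 16 of 17, 22 of 24, 7 of 7 and 31 of 34 without KO liver 5. The difference between these groups was not tested.

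Other genes of the same routes that were called on CDA-HFD were, but for 1, higher in KO livers. In the list for the urea cycle and nitrogen handling 3 of 8 rose and none fell. The ornithine carrier *Slc25a15* rose by 0.77 ± 0.16 (adjusted p = 0.0171) and glutamine synthetase *Glul* by 0.82 ± 0.22 (adjusted p = 0.0319). In the aromatic list 6 of 11 rose and none fell, with the tryptophan dioxygenase *Ido2* at 1.42 ± 0.31 (adjusted p = 0.0177) and the decarboxylase *Ddc* at 0.66 ± 0.15 (adjusted p = 0.0208). In the branched-chain list 5 of 15 rose and none fell. *Hsd17b10*, of isoleucine breakdown, rose by 0.84 ± 0.14 (adjusted p = 0.0106), and its KO effect differed between the diets by 1.00 ± 0.21 (adjusted p = 0.0370), a call lost without the filter, with a replicate block and in 14 of the 20 fits that left out 1 liver. *Acadsb*, of the same route, rose by 0.56 ± 0.13 (adjusted p = 0.0227). In the list for other amino acids 13 of 26 rose and 1 fell. *Dhtkd1*, of lysine breakdown, rose by 1.01 ± 0.22 (adjusted p = 0.0175) and *Mpst*, of cysteine breakdown, by 0.96 ± 0.23 (adjusted p = 0.0226). The gene that fell, *Aldh18a1*, named after its values were seen, makes proline rather than breaking it down (-1.27 ± 0.32, adjusted p = 0.0256). When KO liver 5 was left out, 7 of 9, 11 of 11, 13 of 16 and 18 of 27 genes of these lists rose and 1, again *Aldh18a1*, fell. Over all genes 8.19% were higher and 7.29% lower with every liver, and 19.6% and 21.8% without KO liver 5. The calls for *Glul* and *Ddc* were lost with scaling by library size only. Of 10 fits that left out 1 liver, 7 lost *Glul*, 6 *Mpst*, 6 *Aldh18a1*, 5 *Acadsb* and 4 *Ddc*. Those for *Slc25a15*, *Ido2* and *Dhtkd1* were each lost in 1, and that for *Hsd17b10* in 0.

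Of 12 regulators known to act on these genes, 5 rose in KO livers on CDA-HFD and none fell, against 8.19% of all genes higher and 7.29% lower. Without KO liver 5, 7 rose, against 19.6% of all genes. Among them were the liver transcription factors *Hnf4a* at 0.84 ± 0.17 (adjusted p = 0.0154), *Cebpa* at 0.77 ± 0.18 (adjusted p = 0.0212) and *Creb3l3* at 0.75 ± 0.18 (adjusted p = 0.0218), and the glucagon receptor *Gcgr* at 0.65 ± 0.17 (adjusted p = 0.0280). Leaving out 1 liver lost the call of *Hnf4a* in 0 of 10 fits, *Cebpa* in 5, *Creb3l3* in 6 and *Gcgr* in 7. The glucocorticoid receptor *Nr3c1* (0.14 ± 0.11, adjusted p = 0.393) and *Cebpb* (0.19 ± 0.11, adjusted p = 0.252) were not called. *Ppargc1a*, at -0.07 ± 0.23 (adjusted p = 0.847), and *Atf4*, at -0.23 ± 0.13 (adjusted p = 0.217), had negative values. All of these regulators but *Hnf4a* were named after their values were seen.

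Most members were lower on CDA-HFD than on WD in WT livers, and the fall was called for more of them in WT than in KO livers. The 2 diet comparisons share no liver with each other, but each shares its livers with the comparisons of genotype above. In WT livers 36 of the 41 fell and none rose, against 25.2% of 16726 genes lower and 25.9% higher. The median log2 fold change was -1.05, against -0.003 over all genes. For 33 of the 41 the livers of the diets did not overlap, against 37.1% of all genes. The 5 that did not pass were *Cps1*, *Tat*, *Acmsd*, *Cth* and *Agxt*. In KO livers 12 of the 41 fell and 1 rose, against 7.85% of 16387 genes lower and 9.19% higher. The count of 12 became 6 without KO liver 2 or 4 on WD, and 7 without KO liver 5 on WD or without KO liver 1 or 2 on CDA-HFD. Over all genes the count of lower genes, 1286 with every liver, was 803, 914, 873, 934 and 857 in these fits, in that order. Without KO liver 5 on CDA-HFD, 13 fell and 1 rose, against 8.37% of 16555 genes lower and 9.03% higher. With every liver the median was -0.43, against 0.003 over all genes. For 11 of the 41 the livers of the diets did not overlap, against 15.2% of all genes. The difference between these falls is the interaction given above, in which *Prodh* alone passed.

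**Figure D5:**
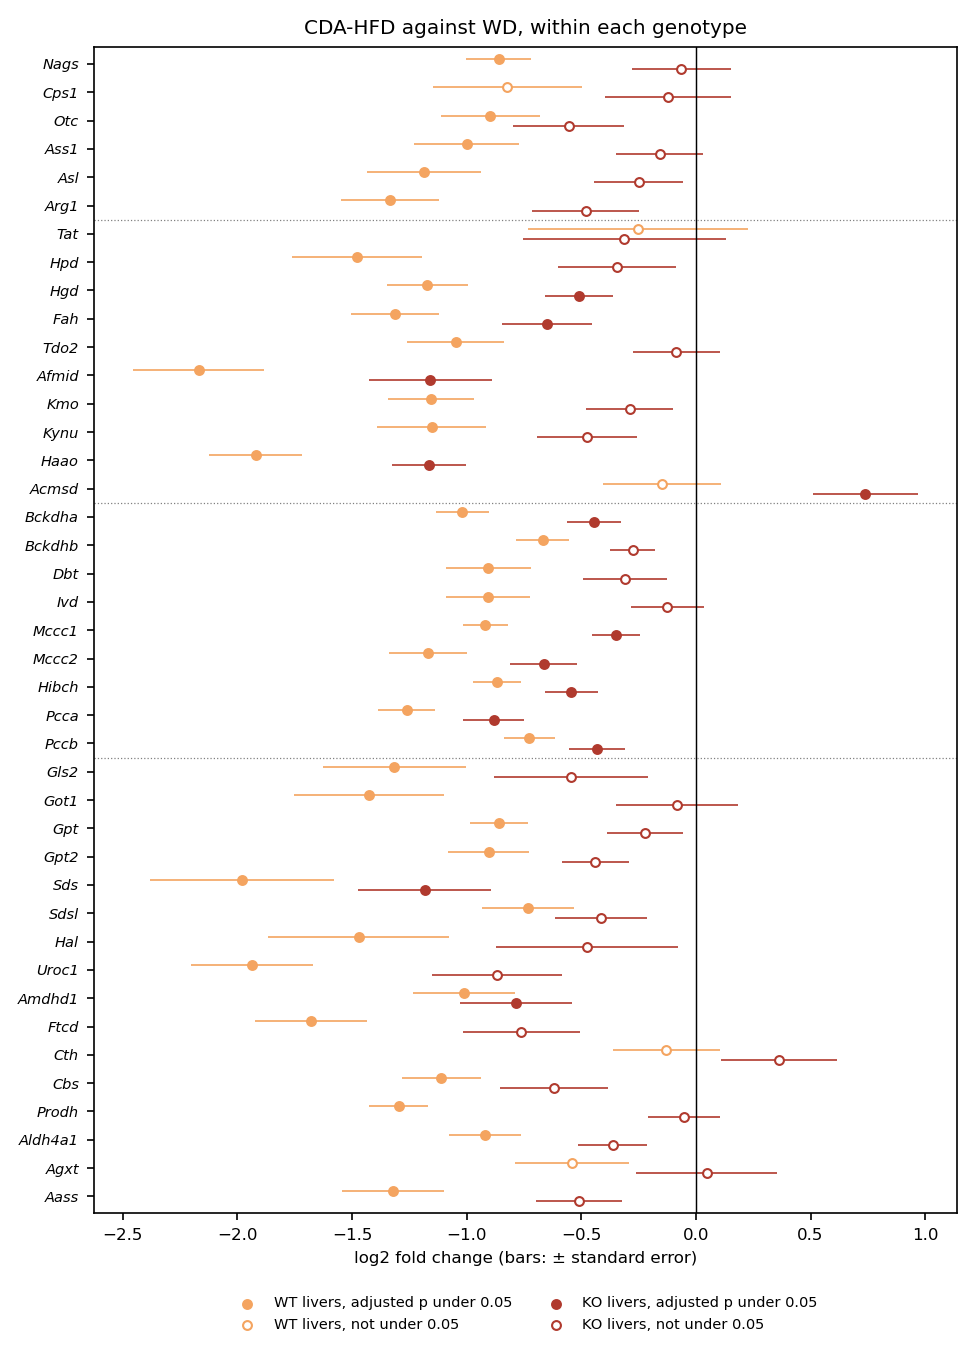
Log2 fold change of CDA-HFD against WD for each of the 41 genes (points, with SE as bars) in WT livers (orange) and KO livers (red), n = 5 livers per group. Filled points have an adjusted p under 0.05: 36 genes in WT livers, all lower, and 13 in KO livers, 12 of them lower.

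In WT livers the urea cycle genes fell except *Cps1*, which was at -0.82 ± 0.33 (adjusted p = 0.0523). *Arg1* was at -1.33 ± 0.21 (adjusted p = 3.54e-04) and *Asl* at -1.19 ± 0.25 (adjusted p = 0.00199). In KO livers 0 of these 6 were called by edgeR or DESeq2, and 1 had an unadjusted p under 0.05 in edgeR. *Arg1* was there at -0.48 ± 0.23 (adjusted p = 0.175) and *Asl* at -0.25 ± 0.19 (adjusted p = 0.395).

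Of the aromatic genes 8 of 10 fell in WT livers, and in KO livers 4 fell and 1 rose. *Afmid* had the largest fall of the 41 in WT livers, at -2.17 ± 0.29 (adjusted p = 1.11e-04), a fold of 0.222. In KO livers it fell too (-1.16 ± 0.27, adjusted p = 0.0157), and every KO liver on CDA-HFD was below every KO liver on WD. *Haao* fell by 1.92 ± 0.20 in WT livers (adjusted p = 3.25e-05) and by 1.17 ± 0.16 in KO livers (adjusted p = 9.76e-04). *Tdo2* fell in WT livers (-1.05 ± 0.21, adjusted p = 0.00150) and was at -0.08 ± 0.19 in KO livers (adjusted p = 0.792). *Acmsd* rose in KO livers (0.74 ± 0.23, adjusted p = 0.0466) and was at -0.15 ± 0.26 in WT livers (adjusted p = 0.657). That call was lost when any one of the 5 KO livers on WD or of KO livers 1 to 4 on CDA-HFD was left out.

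All 9 branched-chain genes fell in WT livers, and 6 fell in KO livers. *Pcca* was at -1.26 ± 0.12 in WT (adjusted p = 2.17e-05) and -0.88 ± 0.13 in KO livers (adjusted p = 0.00158). *Bckdha* was at -1.02 ± 0.12 in WT (adjusted p = 4.71e-05) and -0.45 ± 0.12 in KO livers (adjusted p = 0.0266), the latter lost with scaling by library size only. *Ivd* fell in WT livers (-0.91 ± 0.18, adjusted p = 0.00154) and was at -0.12 ± 0.16 in KO livers (adjusted p = 0.625).

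Of the other members 14 of 16 fell in WT and 2 in KO livers. *Sds* fell most, by 1.98 ± 0.40 in WT (adjusted p = 0.00160) and 1.18 ± 0.29 in KO livers (adjusted p = 0.0198). *Amdhd1* was the other called in KO livers (-0.79 ± 0.25, adjusted p = 0.0476), a call lost in 7 of the 10 fits that left out 1 liver, with scaling by library size only, and with at least 10 counts asked of every library. *Prodh* fell in WT livers (-1.30 ± 0.13, adjusted p = 2.39e-05) and was at -0.05 ± 0.16 in KO livers (adjusted p = 0.847). *Gpt* had -0.86 ± 0.13 in WT (adjusted p = 2.13e-04) and -0.22 ± 0.17 in KO livers (adjusted p = 0.380).

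Without TMM, scaled by library size only, the median of all genes moved to 0.42 in WT and 0.25 in KO livers, and the split of calls over all genes to 9120 higher and 1570 lower in WT livers, against 4335 and 4207, and to 3371 and 553 in KO livers, against 1506 and 1286. With that scaling 35 members fell in WT livers and 7 in KO livers. For KO against WT on CDA-HFD it gave 517 higher and 1192 lower, against 1409 and 1255, with 18 members higher. Markers also differed with diet. In WT livers on CDA-HFD 7 of 10 hepatocyte markers fell and 1 rose, 9 of 14 macrophage markers rose and 2 fell, 9 of 10 stellate cell, 7 of 7 cholangiocyte and 6 of 9 lymphocyte markers tested rose, and 7 of 10 endothelial markers fell. In KO livers 2 hepatocyte markers fell, and 6 of 14 macrophage, 3 of 10 stellate cell, 4 of 7 cholangiocyte, 1 of 10 endothelial and 5 of 8 lymphocyte markers rose. The part of cell makeup in these falls was not tested.

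In the list for other amino acids 22 of 26 fell on CDA-HFD in WT livers and 3 rose. The 3, named after their values were seen, were *Asns*, which makes asparagine, and *Aldh18a1* and *Pycr1*, which make proline. *Asns* rose by 4.56 ± 0.27 in WT livers (adjusted p = 1.75e-06) and by 4.80 ± 0.40 in KO livers (adjusted p = 7.21e-05), from 0.837 ± 0.371 and 20.1 ± 5.13 CPM (mean ± SD, n = 5) in WT livers on WD and on CDA-HFD. *Aldh18a1* rose by 1.31 ± 0.31 in WT livers (adjusted p = 0.00434) and was at 0.56 ± 0.28 in KO livers (adjusted p = 0.177). *Pycr1* rose by 1.26 ± 0.32 in WT livers (adjusted p = 0.00590).

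As a check without a count model, an exact two-sided permutation of the 5 against 5 livers was run on log2 CPM for the named members. With 252 splits the smallest p it can give is 0.00794. On CDA-HFD *Hpd*, *Tdo2*, *Mccc1*, *Gpt*, *Prodh* and *Aass* reached that value in KO against WT livers. The value is reached exactly when the groups do not overlap, so these are the 6 members without overlap given above and no further evidence.

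Some members share exon sequence with other genes, and the strand setting of the counting was not given in the sources used here. The share of exon length was 61.7% for *Bckdha*, 46.6% for *Afmid*, 32.5% for *Aldh4a1*, 29.6% for *Sds* and 15.6% for *Nags*, so their counts are less certain than those of the other members named.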

How the data were processed

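The authors deposited raw read counts per gene for each liver, and per the labels reads were placed on mouse build mm10. Aligner, counter and strand setting were not given in the sources used here. The 5 entries that name no gene were left out of library sizes. Reads without a feature were 20.7% to 28.8%, and reads not placed uniquely 18.0% to 28.7%, of all entries. Counts were tested with edgeR 4.0.16 (TMM, filterByExpr, glmQLFit and glmQLFTest, R 4.3.3) within the groups compared, and over all 20 livers for the interaction. The SE was the absolute log2 fold change divided by the square root of F. Printed CPM use TMM over all 20 libraries, and log2 CPM a prior count of 2. Results were recomputed with DESeq2 1.42.0, with RLE scaling, with library size only, without the filter, with at least 10 counts in every library, with a replicate block, with all 20 libraries in one fit, and leaving out each liver. The scripts were tested on simulated data. The 41 genes, lists and tests were chosen with earlier results of these data known. Values in every liver are printed for the 3 members of each class with the smallest p in KO against WT on CDA-HFD, any member passing on WD or in the interaction, and the member of each class with the largest diet change in WT livers; 15 members met this. For each other list the 2 genes with the smallest p are named, except 1 that is not reported here. Exon lengths and overlaps come from GENCODE on the same build.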

Additional observations from a re-analysis of the deposited data

Results flagged for a closer look

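For *Nags* in KO livers on CDA-HFD, liver 5 lay far from the others, at 24.9 CPM against 60.7 to 70.7 CPM in the other 4, a gap of 0.782 of the whole range. Of 60 groups of 5 livers checked in this way, 1 passed Dixon's limit, where chance gives about 3 (5%). The KO effect on *Prodh* differed between the diets, by 1.24 on the log2 scale (adjusted p = 0.0107, edgeR interaction over 20 livers). With a replicate block the adjusted p was 0.0557, which does not pass.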

How the results depend on the processing

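Leaving out single livers moved the calls most. Members higher in KO livers on CDA-HFD ranged from 5 to 38, members lower on CDA-HFD in KO livers from 6 to 17, members higher there from 0 to 1, and members called in the interaction from 1 to 21, while members lower on CDA-HFD in WT livers ranged from 36 to 38. Over all genes in these fits, the count higher in KO livers on CDA-HFD ranged from 358 to 3406. The count lower on CDA-HFD ranged from 803 to 1386 in KO livers and from 3620 to 4224 in WT livers. Calls with a higher KO effect on CDA-HFD than on WD ranged from 15 to 1110. On the log2 scale, the sign of small values turned in these fits. Of the 41, 26 to 39 were positive for KO against WT on WD, where 36 were with every liver. For diet in KO livers 2 to 7 were positive, where 3 were with every liver. Among the 15 members given liver by liver, 4 turned for KO against WT on WD. *Arg1* ran from -0.083 to 0.060, *Ivd* from -0.016 to 0.17, *Prodh* from -0.0484 to 0.11 and *Aass* from -0.018 to 0.30. For diet in KO livers, *Nags* ran from -0.17 to 0.12, *Tdo2* from -0.19 to 0.039 and *Prodh* from -0.18 to 0.020. With library size only, 7 of the 41 were lower on CDA-HFD in KO livers, and 11 had positive values there, against 3 with TMM. Among the 15, 6 values there turned positive: *Nags* 0.15, *Ass1* 0.067, *Tdo2* 0.15, *Ivd* 0.10, *Gpt* 0.015 and *Prodh* 0.20. None of the values listed for the 15 passed the test on either side. DESeq2 called 4 members in the interaction.

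Whether the replicate numbers pair livers was not settled. Between genotypes, correlations of same-numbered livers' deviations from their group means ran from -0.27 to 0.28 on WD and -0.37 to 0.35 on CDA-HFD. Between diets they ran from -0.15 to 0.33 in WT and -0.17 to 0.35 in KO livers. Livers with different numbers were not compared in this way, so these values cannot decide the question. With a replicate block, members called higher numbered 23 in KO livers on CDA-HFD, 0 in the interaction and 0 for diet in KO livers, and members lower with diet 37 in WT and 8 in KO livers. The cause of these changes was not tested.

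Over all genes, KO against WT on WD gave 2 higher and 10 lower genes, against 56 and 96 with DESeq2, 13 and 25 without the filter, 2 and 24 with all 20 libraries in one fit, 2 and 6 with library size only, and 0 and 2 with the replicate block. KO against WT on CDA-HFD gave 1409 and 1255, against 2176 and 1854 with DESeq2 and 2388 and 1782 in one fit. Diet in KO livers gave 1506 and 1286, against 2587 and 1889 in one fit. The interaction gave 59 and 40, against 263 and 142 with DESeq2, 29 and 23 without the filter and 2 and 6 with the replicate block. Among the 15 members given liver by liver, calls were lost for *Pcca* in KO against WT on CDA-HFD (library size only, no filter), *Bckdha* (library size only) and *Mccc1* (library size only, no filter, replicate block) for diet in KO livers, and *Prodh* in the interaction (replicate block). Calls were gained for *Arg1* and *Sds* in KO against WT on CDA-HFD (both in one fit over 20 libraries, *Arg1* also with DESeq2) and, with DESeq2, for *Aass* with diet in KO livers and *Tdo2*, *Bckdha* and *Mccc1* in the interaction. The other alternatives beyond leaving out livers left the calls of these 15 as they were. *Got1* in KO against WT on CDA-HFD and *Hgd*, *Fah*, *Acmsd*, *Pccb* and *Amdhd1* for diet in KO livers also lost their calls with the block.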
